A study of Mus musculus with 14 samples.

Results

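Promoter methylation of chemokine and chemokine receptor genes was examined in 6 clones of 4T1 cells, a line from a mouse mammary carcinoma that spreads from the mammary gland to distant organs. The genes are those whose symbol begins with Ccl, Cxcl, Ccr or Cxcr and a digit, together with Cx3cl1, Cx3cr1, Xcl1 and Xcr1. This gave 59 of the 22110 promoters listed in the deposited table. One listing of Ccl27a and one of Cxcl11 repeated the levels of another listing of the same gene and were counted once, which left 57 promoters of 51 genes out of 21965 promoters in all. Of these, 35 promoters belonged to 32 ligand genes and 22 to 19 receptor genes. Clones E and T were intravasating, that is, able to enter blood vessels, whereas the labels call the other 4 non-intravasating (clones I, K, L and P). Each clone grew from 1 sorted 4T1 cell and had been assessed in a pool of 23 clones, and the labels name no engineered allele and no agent. The parental line was not analysed here. Whole-genome bisulfite sequencing gave 1 methylation level per promoter and clone, a fraction from 0 (no cytosine methylated) to 1 (all methylated). The 2 groups therefore held 2 and 4 clones, and the read depth behind each level is unknown.

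Chemokines are small secreted proteins that attract cells along a concentration gradient. They bind receptors that span the membrane repeatedly and signal through G proteins, and most inflammatory ligands and receptors pair promiscuously. Tumour cells secrete ligands that draw in neutrophils and macrophages, and some carry receptors such as CXCR4 themselves. Methylation of cytosines in CpG dinucleotides near a transcription start often accompanies a silent gene, although promoters with few CpG dinucleotides can be methylated whether or not the gene is used. RNA was not measured in the data used here.

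Most chemokine system promoters stood at an intermediate level of methylation. Their median level over the 6 clones was 0.594, against 0.328 over all promoters. A mean level between 0.2 and 0.8 was found at 43 of the 57 promoters (75.4%), against 46.9% of all promoters. A mean level over 0.8 was found at 10 (17.5%), against 14.5% of all. Only 4 promoters (7.02%) had a mean level under 0.2, against 38.6% of all promoters. These 4 were those of Cxcl1, Cxcl5, Cx3cl1 and 1 of the 2 Ccl25 promoters, all of them ligand genes. The 22 receptor promoters lay between 0.239 for Ccr10 and 0.847 for Ccr3. The promoter levels of epithelial marker genes were low, between 0.0856 for Cdh1 and 0.258 for Krt18, and those of leukocyte marker genes lay between 0.343 for Lyz2 and 0.790 for Ptprc.

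**Figure D1:**
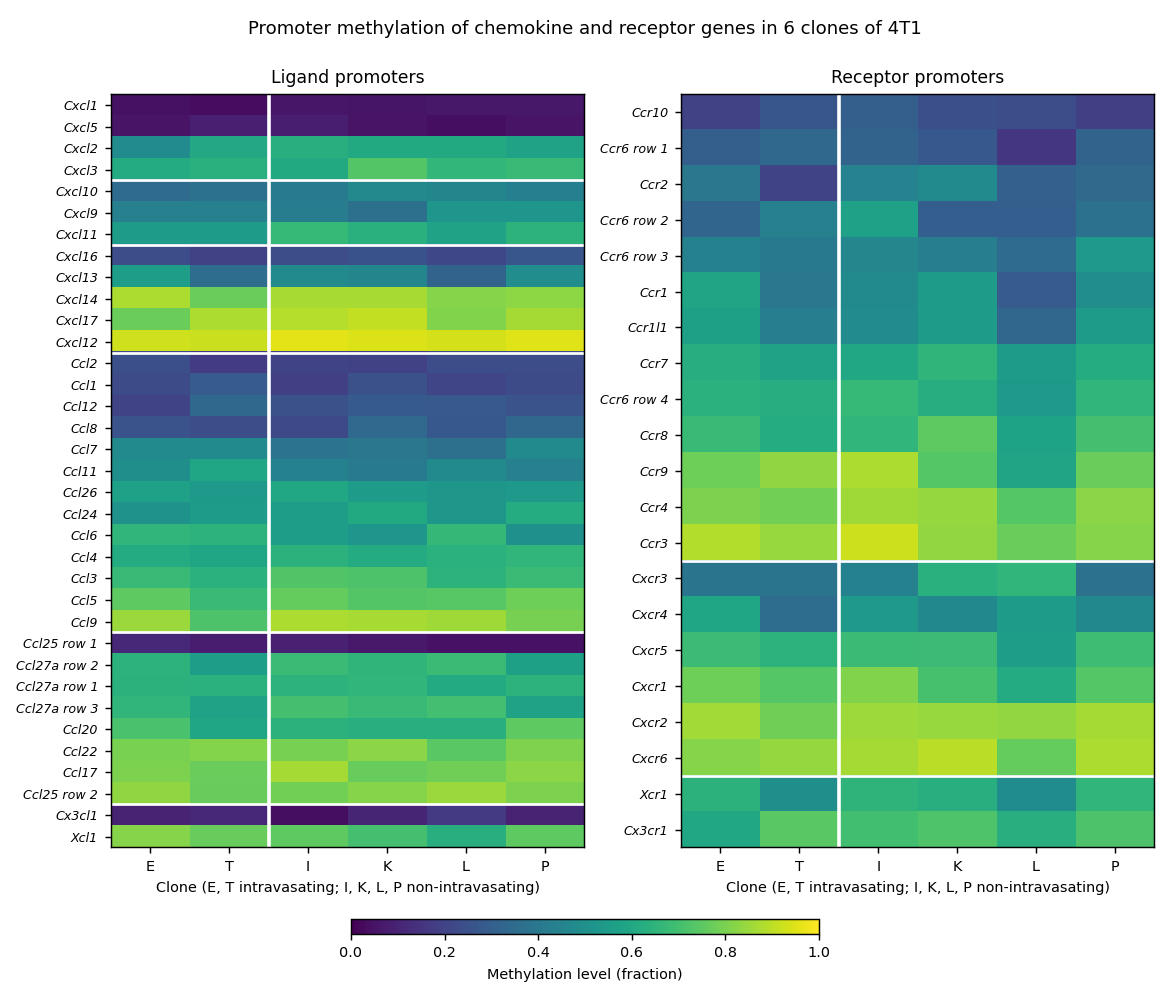
Methylation level (fraction, colour scale from 0 to 1) of the ligand promoters (left) and the receptor promoters reported by name (right) in the 6 clones, with the intravasating clones E and T in the first 2 columns and 1 row per promoter. The low rows are all ligand promoters, Cxcl1 at 0.0535 and Cxcl5 at 0.0613 on average among them, and the column of clone L is darker, that is lower, than its neighbours in many receptor rows.

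No chemokine or receptor promoter passed the test between intravasating and non-intravasating clones, which does not show that their levels are equal. limma, with Benjamini-Hochberg adjustment over all promoters, called 0 of the 57 at an adjusted p under 0.05, against 0.00911% of all promoters, and every member had an adjusted p of 1.00. An unadjusted limma p under 0.05 was found at 1 of the 57, Cxcl1, against 3.93% of all promoters. For Cxcl1 this limma unadjusted p was 0.553 after centring each clone on its median, 0.105 without the mean trend and 0.0545 without clone P. The limma unadjusted p was 0.0143 on the logit scale, 0.0356 without clone I, 0.0312 without clone K and 0.0487 without clone L. The Cxcl1 difference was -0.0168 without clone T and -0.0276 without clone E. Both intravasating clones lay above all 4 non-intravasating clones at 3 promoters (5.26%), against 4.31% of all promoters. Both lay below at 4 promoters (7.02%), against 6.89% of all. The 3 higher ones were Ccl11, Xcl1 and Ccl7, the 4 lower ones were Cxcl1, Cxcl10, Cxcl11 and Cxcl12, and all 7 are ligand genes. These shares are close to those of the whole table. The mean level over the 57 promoters was 0.542 ± 0.0186 (SD, n = 2) in intravasating clones, against 0.552 ± 0.0237 (SD, n = 4) in non-intravasating clones. The mean was lower in the intravasating clones at 36 promoters and higher at 21, with a median difference of -0.0198. Over all promoters 12640 were lower and 9320 higher, with a median difference of -0.00424. Without clone T the difference of the mean over the 57 promoters turned to 0.00307.

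**Figure D2:**
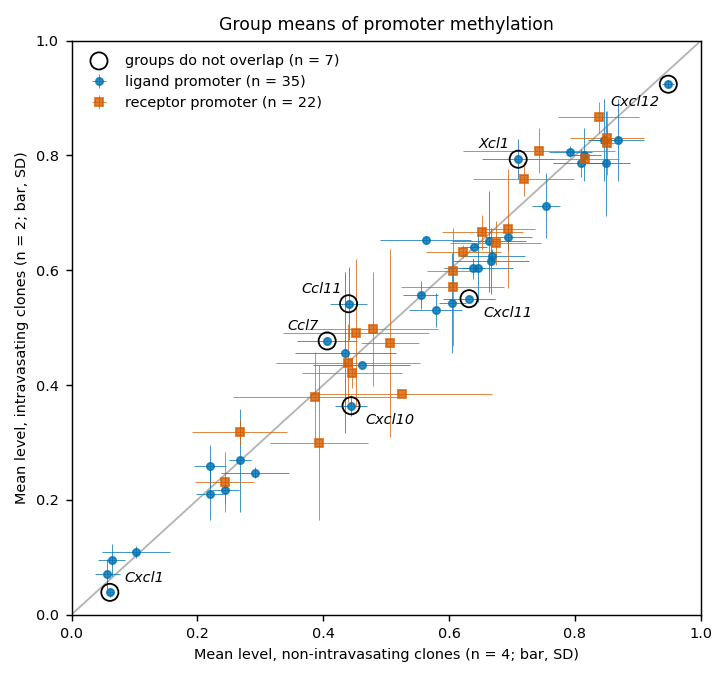
Mean methylation level of each of the 57 promoters in the intravasating clones (vertical axis, n = 2) against the non-intravasating clones (horizontal axis, n = 4), with bars for the SD, colour for ligand or receptor and a ring around the promoters whose groups do not overlap. The 7 ringed promoters are all ligands and lie close to the line of equal level, the farthest being Ccl11 with a difference of 0.101.

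The neutrophil-attracting ligands Cxcl1, Cxcl2, Cxcl3 and Cxcl5 lie within 147 kb on chromosome 5 and bind the receptor CXCR2. Their promoters split into a nearly unmethylated and an intermediate pair. The sequences of Cxcl1, Cxcl2 and Cxcl3 are shown because these promoters have a like number of CpG dinucleotides and very different levels. Each is the stretch of 250 bases before the RefSeq transcription start on the forward strand of GRCm38.p6, at chr5:90890995-90891244 for Cxcl1, chr5:90903649-90903898 for Cxcl2 and chr5:90785851-90786100 for Cxcl3, with CpG dinucleotides in capitals.
Cxcl1: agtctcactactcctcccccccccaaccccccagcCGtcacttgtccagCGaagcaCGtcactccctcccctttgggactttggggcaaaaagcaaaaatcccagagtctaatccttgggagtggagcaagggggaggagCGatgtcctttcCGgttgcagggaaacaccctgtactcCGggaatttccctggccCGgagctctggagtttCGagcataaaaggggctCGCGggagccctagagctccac
Cxcl2: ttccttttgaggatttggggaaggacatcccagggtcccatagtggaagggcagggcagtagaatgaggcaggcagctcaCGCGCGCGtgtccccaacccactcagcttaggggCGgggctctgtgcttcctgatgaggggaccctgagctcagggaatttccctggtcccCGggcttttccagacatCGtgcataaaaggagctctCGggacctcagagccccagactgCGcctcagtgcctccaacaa
Cxcl3: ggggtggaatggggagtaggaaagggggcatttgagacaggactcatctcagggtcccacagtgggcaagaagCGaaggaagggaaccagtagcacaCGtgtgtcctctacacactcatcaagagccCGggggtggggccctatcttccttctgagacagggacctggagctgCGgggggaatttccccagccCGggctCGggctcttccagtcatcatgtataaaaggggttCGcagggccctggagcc

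Those stretches hold 10 CpG dinucleotides for Cxcl1, 9 for Cxcl2 and 7 for Cxcl3. The Cxcl1 promoter was at 0.0441 in E and 0.0333 in T, against 0.0588 in I, 0.0554 in K, 0.0644 in L and 0.0649 in P. Both intravasating clones were below all the others, and all 6 clones were low. The means were 0.0387 ± 0.00763 (SD, n = 2) and 0.0609 ± 0.00459 (SD, n = 4), a difference of -0.0222 with a standard error of 0.00835 (limma unadjusted p = 0.0266, adjusted p = 1.00). The Cxcl2 promoter was at 0.481 in E and 0.604 in T, against 0.630 in I, 0.606 in K, 0.608 in L and 0.577 in P. Clone E was the low one and the groups overlapped through clone T. Cxcl3 was at 0.616 in E and 0.634 in T, against 0.607 in I, 0.733 in K, 0.662 in L and 0.672 in P, with overlap. The Cxcl5 promoter was as low as that of Cxcl1, at 0.0515 in E and 0.0887 in T, against 0.0844 in I, 0.0535 in K, 0.0368 in L and 0.0529 in P. Its groups overlapped. The lowest level of Cxcl2 or Cxcl3 in any clone, 0.481, was above the highest level of Cxcl1 or Cxcl5, 0.0887. Between these genes lie Pf4 and Ppbp, the platelet chemokines, whose promoters were methylated at 0.911 and 0.844 on average.

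The ligands of CXCR3, Cxcl9, Cxcl10 and Cxcl11, are interferon-induced attractants of T cells and natural killer cells, and lie within 42 kb on chromosome 5. Means were lower in the intravasating clones at all 3, and none passed the test. Averaged over the 3, the level was 0.450 ± 0.00657 (SD, n = 2) in intravasating clones, against 0.512 ± 0.0188 (SD, n = 4) in non-intravasating clones. The Cxcl10 promoter was at 0.351 in E and 0.377 in T, against 0.413 in I, 0.469 in K, 0.461 in L and 0.433 in P. Both intravasating clones lay below the others, with a difference of -0.0803 and a standard error of 0.0469 (limma unadjusted p = 0.122, adjusted p = 1.00). Cxcl11 was at 0.549 in E and 0.551 in T, against 0.671 in I, 0.635 in K, 0.575 in L and 0.645 in P. The groups did not overlap there either, and the difference was -0.0812 with a standard error of 0.0417 (limma unadjusted p = 0.0845, adjusted p = 1.00). The Cxcl9 promoter was at 0.435 in E and 0.434 in T, against 0.424 in I, 0.371 in K, 0.525 in L and 0.525 in P. Clones L and P were high and clone K low, so the groups overlapped. The sequence of the Cxcl10 promoter is shown because it carries an interferon response core, an NF-kB core and an AP-1 match together. It is the stretch of 250 bases before the start on the reverse strand at chr5:92348890-92349139, with CpG dinucleotides in capitals.
Cxcl10: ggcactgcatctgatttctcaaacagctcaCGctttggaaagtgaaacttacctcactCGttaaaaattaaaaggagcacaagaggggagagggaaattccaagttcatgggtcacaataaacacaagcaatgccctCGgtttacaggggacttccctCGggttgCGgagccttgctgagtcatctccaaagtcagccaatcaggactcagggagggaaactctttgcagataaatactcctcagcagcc

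Of the other CXC ligands, Cxcl12, the ligand of CXCR4 that holds stem cells in the bone marrow, had the highest level of all 57 promoters. It was at 0.929 in E and 0.920 in T, against 0.958 in I, 0.948 in K, 0.935 in L and 0.952 in P. Both intravasating clones were below the rest by a gap of 0.00616, with a difference of -0.0240 and a standard error of 0.0160 (limma unadjusted p = 0.168, adjusted p = 1.00). Cxcl17, a mucosal chemokine, followed with a mean over the 6 clones of 0.855 ± 0.050 (SD, n = 6), and then Cxcl14, an epithelial chemokine, with 0.840 ± 0.0391. Clone T was the lowest of the 6 for Cxcl14, at 0.776, and clone E was the lowest for Cxcl17, at 0.777. Cxcl16, the transmembrane ligand of CXCR6, was at 0.235 ± 0.0245 (SD, n = 6). Cxcl13, the attractant of B cells to follicles, was the ligand promoter with the widest range. It was at 0.556 in E and 0.357 in T, against 0.473 in I, 0.461 in K, 0.317 in L and 0.490 in P. Clone E was high and clones T and L were low, so that the clones of each group spanned much of the range.

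The inflammatory CC ligands attract monocytes, eosinophils and T cells, and 11 of the 13 lie on chromosome 11 in 2 blocks. In the block of 144 kb with Ccl2, Ccl7, Ccl11, Ccl12, Ccl8 and Ccl1, the median level was 0.272. In the block of 139 kb with Ccl5, Ccl9, Ccl6, Ccl3 and Ccl4 it was 0.682. Every promoter of the first block, with a highest mean of 0.474 for Ccl11, stood below every promoter of the second, with a lowest mean of 0.593 for Ccl6. Ccl2, the main attractant of monocytes, was at 0.242 in E and 0.178 in T, against 0.207 in I, 0.197 in K, 0.236 in L and 0.237 in P. It was the lowest of the first block, and its groups overlapped. Ccl11, the eosinophil attractant eotaxin, was at 0.497 in E and 0.587 in T, against 0.438 in I, 0.408 in K, 0.479 in L and 0.436 in P. Both intravasating clones were above the others, with a difference of 0.101 and a standard error of 0.0499 (limma unadjusted p = 0.0735, adjusted p = 1.00). The difference was 0.0564 without clone T and 0.146 without clone E. Ccl7, a monocyte attractant, was at 0.476 in E and 0.478 in T, against 0.383 in I, 0.398 in K, 0.369 in L and 0.475 in P. Clone P stood with the intravasating clones, so that the gap between the groups was 0.000785, and the difference was 0.0706 with a standard error of 0.0508 (limma unadjusted p = 0.199, adjusted p = 1.00). Clone T was the highest of the 6 at 4 of the 6 promoters of the first block and the lowest at 4 of the 5 of the second. Over the whole table clone T was the highest at 7.48% and the lowest at 24.6% of promoters. Among the 57 it was the highest at 7 (12.3%) and the lowest at 16 (28.1%). The 16 were those of 13 ligand and 3 receptor promoters. Ccl5, an attractant of T cells, was at 0.752 in E and 0.673 in T, against 0.765 in I, 0.733 in K, 0.739 in L and 0.780 in P, with overlap. Ccl9, a myeloid attractant, had the highest level of the inflammatory CC ligands at 0.829 ± 0.0601 (SD, n = 6). Ccl24 and Ccl26, which belong to the eotaxin group, lie on chromosome 5 and were at 0.563 and 0.555 on average.

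A second sharp contrast between neighbours was seen on chromosome 8, where Ccl22, Cx3cl1 and Ccl17 follow each other within 66.4 kb. Ccl22 and Ccl17, the ligands of CCR4 on regulatory and type 2 helper T cells, were at 0.797 ± 0.0278 and 0.802 ± 0.0374 (SD, n = 6 each). Cx3cl1 between them encodes fractalkine, a membrane-bound chemokine that also acts as an adhesion molecule. It was at 0.101 in E and 0.117 in T, against 0.0373 in I, 0.105 in K, 0.171 in L and 0.0969 in P. Clone I was the lowest and clone L the highest, and the groups overlapped. The sequences of Cx3cl1 and Cxcl12 are set side by side because both have a CpG-rich start and lie near opposite ends of the scale of levels. They are the stretches of 250 bases before the start on the forward strand, at chr8:94771930-94772179 for Cx3cl1 and chr6:117168285-117168534 for Cxcl12, each with 14 CpG dinucleotides in capitals.
Cx3cl1: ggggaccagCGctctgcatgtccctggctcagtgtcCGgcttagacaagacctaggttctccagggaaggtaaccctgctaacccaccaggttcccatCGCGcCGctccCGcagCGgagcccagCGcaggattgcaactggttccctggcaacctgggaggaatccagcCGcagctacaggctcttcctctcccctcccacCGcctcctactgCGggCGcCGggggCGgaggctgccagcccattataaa
Cxcl12: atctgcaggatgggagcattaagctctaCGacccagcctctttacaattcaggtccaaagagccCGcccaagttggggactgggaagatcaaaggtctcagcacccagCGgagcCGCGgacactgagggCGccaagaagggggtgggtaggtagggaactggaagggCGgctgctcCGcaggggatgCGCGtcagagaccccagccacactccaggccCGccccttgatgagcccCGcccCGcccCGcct

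Among the lymphoid and barrier ligands, Ccl25, the thymus and gut ligand of CCR9, had 2 promoters in the table, at 0.0743 ± 0.0262 and 0.810 ± 0.0301 (SD, n = 6 each). The table does not say which transcription start each stands for. The 3 distinct promoters of Ccl27a, a skin chemokine, were at 0.632 to 0.650. Ccl20, the ligand of CCR6, was at 0.712 in E and 0.588 in T, against 0.643 in I, 0.630 in K, 0.629 in L and 0.751 in P, with clone P the highest and clone T the lowest. Xcl1, lymphotactin, which attracts cross-presenting dendritic cells, was at 0.818 in E and 0.769 in T, against 0.753 in I, 0.704 in K, 0.631 in L and 0.752 in P. Both intravasating clones were above the rest, by a gap of 0.0162 over clone I, and clone L was the lowest. The difference was 0.0838 with a standard error of 0.0408 (limma unadjusted p = 0.0708, adjusted p = 1.00).

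The receptor promoters varied more between clones than the ligand promoters did. Their median range over the 6 clones was 0.175, against 0.111 for the ligands, 0.0894 for all promoters and 0.137 for all promoters of a mean level between 0.2 and 0.8. A range of at least 0.2 was found at 9 of the 57 promoters, against 10.6% of all promoters: 8 of the 22 receptor promoters (36.4%) and 1 of the 35 ligand promoters. Of the 8, those of Ccr1, Ccr1l1, Ccr2 and Ccr9 lie in the same block on chromosome 9 and are not independent. At most 5 CpG dinucleotides in the RefSeq windows described below were held by 78.6% of 14 receptor genes and 52.6% of 19 ligand genes. Over all matched genes it was 32.1%, and ranges were not compared at like CpG content. A clone with a distance of 0.2 or more to the median of the other 5 was found at 4 of the 57 promoters (7.02%), all receptors, against 3.88% of all promoters. These were Ccr1 and Ccr1l1 with clone L low, 1 of the 4 Ccr6 promoters with clone I high, and Cxcr3 with clones K and L high. The groups overlapped at all 22 receptor promoters. The mean receptor level was 0.573 ± 0.0295 (SD, n = 2) in intravasating clones, against 0.582 ± 0.0522 (SD, n = 4) in non-intravasating clones. By clone it was 0.594 and 0.552 in E and T, and 0.623, 0.603, 0.506 and 0.597 in I, K, L and P, so that the lowest clone was a non-intravasating one.

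Clone L was the lowest of the 6 clones at 16 of the 22 receptor promoters (72.7%) and at 7 of the 35 ligand promoters (20%), against 35.9% of all promoters. Of the 16, 10 were among the 12 receptor promoters on chromosome 9 and 4 were the promoters of Ccr6, so they are not independent. Of the remaining receptors, Ccr7 and Cxcr1 had clone L lowest, and Ccr10, Cxcr2, Cxcr3 and Cxcr4 did not. The median distance of clone L from the median of the other clones was -0.0914 at receptor promoters, -0.0138 at ligand promoters and -0.0203 at all promoters. Clone L was low across the table, more so at promoters of intermediate level. Among all promoters between 0.2 and 0.8 it was the lowest at 43.5%, with a median distance of -0.0496. In that range 13 of the 18 receptor promoters and 6 of the 25 ligand promoters had clone L lowest. Among all promoters in that range with at most 5 CpG dinucleotides in the RefSeq window, clone L was the lowest at 53.7% of 2819, with a median distance of -0.0804. For the 7 receptor promoters of that class the count was 4, with a median distance of -0.0934. For the 8 ligand promoters of that class it was 2, with a median distance of 0.00431. The leukocyte marker promoters, 5 in all, had a median distance of -0.0920 for clone L, close to that of the receptors. How much of the receptor pattern goes with level, CpG content or the clone-wide shift was not tested beyond these values. The mean over the ligand promoters was alike in all clones, between 0.514 in clone T and 0.537 in clone P.

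**Figure D3:**
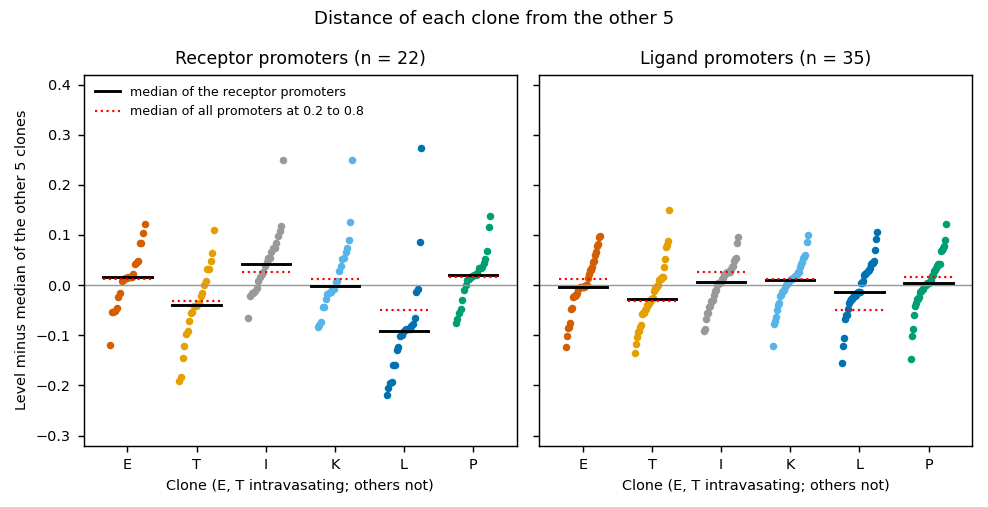
Level of each clone minus the median of the other 5 clones at the receptor promoters (left, n = 22) and the ligand promoters (right, n = 35), 1 point per promoter, with a black line for the median of the shown promoters and a red dotted line for that of all promoters at 0.2 to 0.8. The receptor points of clone L centre on -0.0914 and the ligand points on -0.0138, and the highest receptor points of clones K and L, at 0.250 and 0.273, are those of Cxcr3.

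The chromosome 9 block of receptor genes carried much of this variation. Ccr9, Cxcr6, Xcr1, Ccr1, Ccr1l1, Ccr3 and Ccr2 follow each other there within 342 kb. Clone L was the lowest of the 6 at 6 of these 7 promoters, with Ccr2 as the exception, where clone T was the lowest and clone L the second lowest. The mean over the 7 promoters was 0.668 in E and 0.579 in T, against 0.675 in I, 0.668 in K, 0.504 in L and 0.645 in P. The median distance from the other clones was -0.159 for clone L and -0.0907 for clone T. At the 20 other promoters within 1 Mb of the block, clone L was the lowest at 7 and its median distance was -0.0160. By gene position none of the 20 lies past Ccr2: 2 are of Fyco1 inside the block and the rest lie before Ccr9. Those of 1110059G10Rik and Kif15 have the same levels in every clone. The 20 neighbours had a median level of 0.0833, far under that of the receptors, so the levels of the 2 sets are not alike. Among the 7 neighbours with a mean between 0.2 and 0.8, clone L stood at -0.127 for Slc6a20b, -0.102 for Tgm4 and -0.0727 for Clec3b. It stood at -0.0522 for Slc6a20a, -0.0418 for Zfp445, -0.0305 for Cdcp1 and -0.00868 for Tmem42. On chromosome 9 as a whole clone L was the lowest at 39.3% of 1225 promoters.

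**Figure D4:**
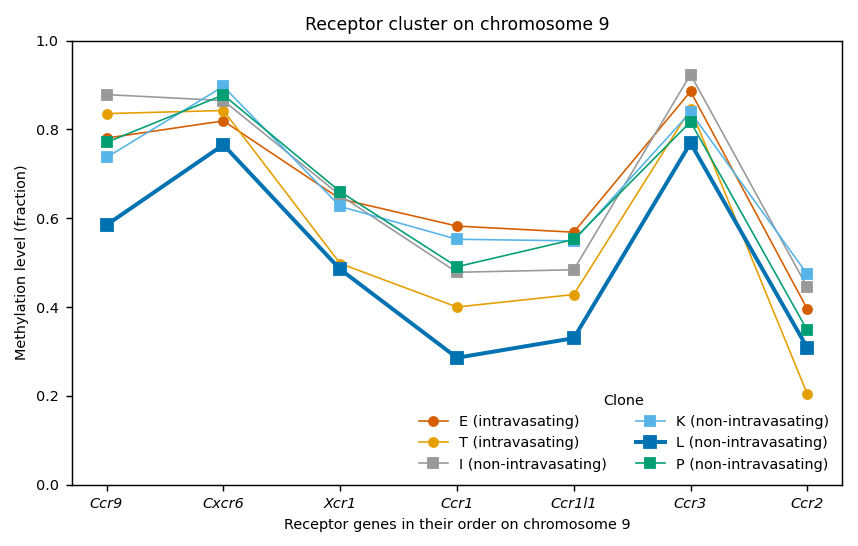
Methylation level (fraction) of the 7 receptor promoters of the chromosome 9 block in gene order, with 1 line per clone, circles for the intravasating clones E and T and squares for the others. The thick line of clone L is the lowest at each promoter but that of Ccr2, where clone T is lower at 0.204. Clone E is the highest at Ccr1 and Ccr1l1.

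Ccr1, a receptor of CCL3 and CCL5 on monocytes and neutrophils, had the widest range of all members. It was at 0.582 in E and 0.40 in T, against 0.478 in I, 0.553 in K, 0.286 in L and 0.491 in P. Clone E was the highest, clone L the lowest, and the intravasating clones stood on either side of clones I, K and P. Ccr2, the receptor of CCL2 on inflammatory monocytes, was at 0.395 in E and 0.204 in T, against 0.444 in I, 0.474 in K, 0.308 in L and 0.347 in P. Its difference of -0.0938 rested on clone T, and without it the value was 0.00186. The sequences of the Ccr1 and Ccr2 promoters are shown because both have a wide range over the clones and hold 1 CpG dinucleotide each. They are the stretches of 250 bases before the start, at chr9:123968693-123968942 on the reverse strand for Ccr1 and chr9:124101933-124102182 on the forward strand for Ccr2, with the CpG in capitals. The Ccr2 stretch lies inside the annotated span of the gene, chr9:124101918-124109140, so the start used for it is not the outermost one.
Ccr1: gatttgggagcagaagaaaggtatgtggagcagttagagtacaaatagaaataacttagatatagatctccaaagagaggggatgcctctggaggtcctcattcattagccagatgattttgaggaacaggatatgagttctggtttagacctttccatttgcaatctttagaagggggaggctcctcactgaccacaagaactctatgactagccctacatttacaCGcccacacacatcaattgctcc
Ccr2: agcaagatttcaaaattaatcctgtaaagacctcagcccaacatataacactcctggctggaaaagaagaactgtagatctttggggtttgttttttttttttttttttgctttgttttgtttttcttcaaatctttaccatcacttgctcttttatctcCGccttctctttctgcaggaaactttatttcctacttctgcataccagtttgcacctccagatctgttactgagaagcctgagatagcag

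Ccr1l1, a relative of Ccr1 next to it, was at 0.569 in E and 0.428 in T, against 0.484 in I, 0.549 in K, 0.330 in L and 0.552 in P, with clones L and T low as for Ccr1. Ccr9, the receptor of CCL25 on gut-homing lymphocytes, was at 0.781 in E and 0.836 in T, against 0.879 in I, 0.737 in K, 0.585 in L and 0.771 in P. There clone L alone was low, while clone T was the second highest. Xcr1, the receptor of lymphotactin, was at 0.644 in E and 0.498 in T, against 0.652 in I, 0.627 in K, 0.485 in L and 0.660 in P, so clones T and L were low together. Ccr3, the eotaxin receptor, was at 0.886 in E and 0.847 in T, against 0.924 in I, 0.839 in K, 0.770 in L and 0.817 in P. Cxcr6, the receptor of CXCL16 on tissue-resident T cells, was at 0.819 in E and 0.843 in T, against 0.865 in I, 0.897 in K, 0.766 in L and 0.878 in P. These last genes were highly methylated in every clone, with clone L at the low end.

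Ccr6, the receptor of CCL20, had 4 promoters on chromosome 17, with mean levels of 0.284, 0.384, 0.437 and 0.626. Clone L was the lowest at all 4, which share a gene and are not independent. The second of them was at 0.325 in E and 0.435 in T, against 0.573 in I, 0.298 in K, 0.297 in L and 0.378 in P, with clone I far above the rest. Of the remaining CC receptors, Ccr10, the skin-homing receptor of CCL27 and CCL28, was the lowest receptor promoter at 0.239 ± 0.0438 (SD, n = 6). Ccr7, which guides dendritic cells and naive T cells to lymph nodes, was at 0.622 in E and 0.575 in T, against 0.601 in I, 0.653 in K, 0.552 in L and 0.617 in P. Its clones lay within 0.101 of each other. Ccr8 and Ccr4, receptors of helper and regulatory T cells on chromosome 9 outside the block, were at 0.665 ± 0.0597 and 0.808 ± 0.0434 (SD, n = 6 each), with clone L the lowest at both.

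Cxcr4, the receptor of CXCL12 that many carcinoma cells carry, was at 0.588 in E and 0.358 in T, against 0.540 in I, 0.467 in K, 0.552 in L and 0.465 in P. The intravasating clones were the highest and the lowest of the 6. Cxcr3, the receptor of CXCL9, CXCL10 and CXCL11, lies on chromosome X and showed another order. It was at 0.385 in E and 0.383 in T, against 0.439 in I, 0.635 in K, 0.658 in L and 0.372 in P. Clones K and L stood well above the other clones, and clone P was with the intravasating ones, so that the difference of -0.142, with a standard error of 0.0843, came with overlap (limma unadjusted p = 0.128, adjusted p = 1.00). Clones K and L both lay at least 0.1 above every other clone at 1 of 831 promoters on chromosome X, Cxcr3 itself, and at 5 of 19596 autosomal promoters, a pattern searched for after its values were seen. The sequences of these promoters contrast a CpG-rich with a CpG-poor receptor start. They are the stretches of 250 bases before the start on the reverse strand, at chr1:128592300-128592549 for Cxcr4 with 19 CpG dinucleotides and chrX:101734148-101734397 for Cxcr3 with 3, in capitals.
Cxcr4: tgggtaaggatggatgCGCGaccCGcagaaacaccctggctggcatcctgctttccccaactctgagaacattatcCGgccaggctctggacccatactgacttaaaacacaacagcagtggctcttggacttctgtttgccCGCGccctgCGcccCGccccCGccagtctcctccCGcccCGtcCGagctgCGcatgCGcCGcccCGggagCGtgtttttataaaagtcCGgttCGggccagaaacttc
Cxcr3: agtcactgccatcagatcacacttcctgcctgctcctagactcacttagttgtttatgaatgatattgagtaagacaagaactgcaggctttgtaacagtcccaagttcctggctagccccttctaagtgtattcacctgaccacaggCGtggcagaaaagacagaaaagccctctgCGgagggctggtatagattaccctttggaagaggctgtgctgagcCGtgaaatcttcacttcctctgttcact

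Cxcr2, the neutrophil receptor of CXCL1, CXCL2 and CXCL5, was at 0.862 in E and 0.783 in T, against 0.854 in I, 0.846 in K, 0.839 in L and 0.867 in P, with clone T the low one. Cxcr1, its neighbour on chromosome 1, was at 0.732 ± 0.0674 (SD, n = 6), with clone L the lowest at 0.615. Cxcr5, the receptor of CXCL13 on follicular B cells, was at 0.657 ± 0.0523 (SD, n = 6), again with clone L the lowest, at 0.556. Cx3cr1, the receptor of fractalkine on monocytes and microglia, was at 0.599 in E and 0.745 in T, against 0.698 in I, 0.725 in K, 0.632 in L and 0.719 in P. Clone T was the highest there and clone E the lowest, the reverse of Cxcr4.

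Several ligands with little promoter methylation had a receptor with much more. This follows from the levels given above, since no receptor promoter averaged under 0.239 and any ligand far below that has a higher receptor. Cxcl1 and Cxcl5 averaged 0.0535 and 0.0613 over the 6 clones, and their receptor gene Cxcr2 averaged 0.842. Cx3cl1 averaged 0.105 and Cx3cr1 0.686. Cxcl16 averaged 0.235 and Cxcr6 0.845. The order was the opposite for Cxcl12, at 0.940, and Cxcr4, at 0.495. It was also the opposite for Ccl27a, at 0.632 to 0.650, and Ccr10, at 0.239. Levels of both partners were near each other for Ccl17 and Ccl22, at 0.802 and 0.797, and Ccr4, at 0.808. Ccl2 and Ccr2 averaged 0.216 and 0.362. Cxcl2 and Cxcl3, whose products also bind CXCR2, averaged 0.584 and 0.654. Cxcl9, Cxcl10 and Cxcl11 averaged 0.452, 0.417 and 0.605, and Cxcr3 0.479. Xcl1 averaged 0.738, above Xcr1 at 0.594. Ccl20 averaged 0.659, above all 4 Ccr6 promoters at 0.284 to 0.626. These pairs were chosen among the well-known partners, and no test was made across them.

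The position of the chemokine promoters on the scale of CpG content was read from RefSeq windows of 300 bases, from 250 before to 50 after the start. A window was found for 36 of the 51 genes, and 33 of these had 1 window and 1 promoter in the table. Their median was 3 CpG dinucleotides, 4 for the 19 ligands and 3 for the 14 receptors, against 14 over 11848 such genes of the whole table. At most 5 were held by 63.6% of the 33 genes and by 32.1% of all. At least 15 were held by 4 of the 33, Cx3cl1 with 19, Cxcl12 and Cxcr4 with 20 each, and Cxcl14 with 22, against 48.8% of all. Across genes, level and CpG number had a Spearman rho of -0.396 over all 11848 and of -0.0570 over the 33, as a description only, since genes are not independent replicates and share the same clones. Among all windows with 19 to 22 CpG dinucleotides, 1153 in number, the median level was 0.149 and 9.11% were over 0.8. Cxcl12 and Cxcl14 were in that upper share and Cx3cl1 was under the median. Of the 673 windows with 9 to 11, 15.2% were under 0.1, as was Cxcl1, and 50.5% were over 0.5, as were Cxcl2 and Cxcl3. The promoter boundaries behind the deposited levels are not stated in those sources that were used and may differ from these windows.

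**Figure D5:**
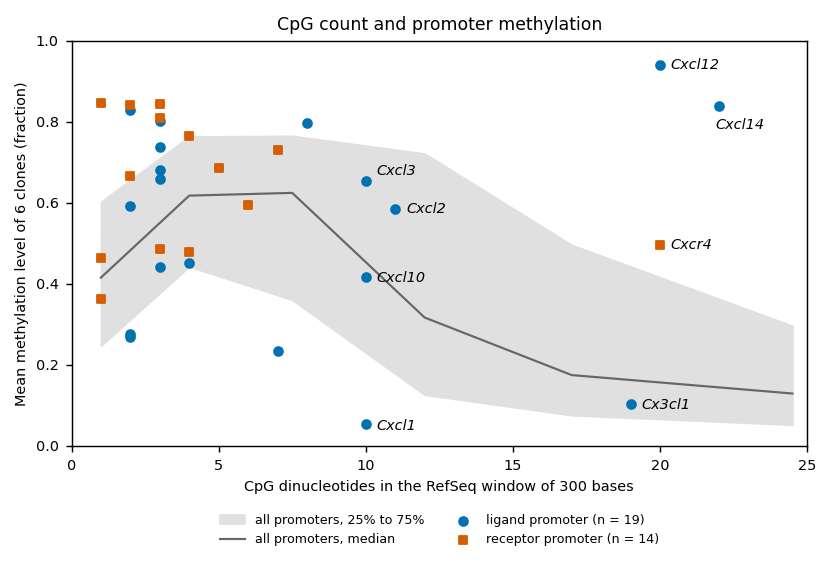
Mean methylation level over the 6 clones (vertical axis, fraction) against the number of CpG dinucleotides in the RefSeq window of 300 bases (horizontal axis) for the 33 chemokine system genes with 1 window and 1 promoter, coloured by ligand or receptor, with the median and the interquartile range of all promoters in grey. Most points crowd at 5 CpG dinucleotides or fewer, and Cxcl12 and Cxcl14 lie far above the grey band.

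Short motifs were counted on both strands of the same windows. The background was all 32851 RefSeq windows, not only those of genes with 1 window and 1 promoter, and CpG content was not matched. The TATA box letters TATAAA were in 10 of the 33 (30.3%) and in 13.6% of all 32851 windows. The NF-kB core GGANTTTCC was in 5 (15.2%), those of Cxcl1, Cxcl2, Cxcl3, Cxcl10 and Ccr3, and in 1.25% of all windows. In the sequences above it reads ggaatttcc in Cxcl1, Cxcl2 and Cxcl3, beginning 70, 96 and 72 bases before the start, and ggaaattcc, a match on the other strand, in Cxcl10, beginning 158 bases before it. It was thus in the low promoter of Cxcl1 and in the more methylated ones of Cxcl2 and Cxcl3 alike. Cxcl1, Cxcl2 and Cxcl3 lie in the same block on chromosome 5, so their matches are not independent. The AP-1 letters TGANTCA were in 6 (18.2%) and in 7.81% of all windows. The interferon response core GAAANNGAA was in 7 (21.2%), Cxcl9 and Cxcl10 among them, and in 8.56% of all. The STAT letters TTCNNNGAA were in 3 (9.09%) and in 8.30% of all. Some matches overlap by their letters, and a match describes sequence alone.

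The other genes of the pathway, 41 promoters of 34 genes from lists of platelet ligands, related receptors, signalling proteins and transcription regulators, were compared in the same fit. limma called 0 of the 41, and 1 (2.44%) had an unadjusted p under 0.05, against 3.93% of all promoters. Both intravasating clones lay below the others at 4 (9.76%), against 6.89% of all promoters, and above them at 0, against 4.31%. The 1 was a promoter of Ptk2b, a kinase that acts after chemokine receptors, at 0.801 in E and 0.801 in T, against 0.917 in I, 0.849 in K, 0.840 in L and 0.893 in P. Promoters of the transcription regulators were low, with a median of 0.0790, and Nfkb1, an NF-kB subunit, was at 0.0731. The signalling genes had a median of 0.269, with Gnai2, a G protein subunit, at 0.0508 and Rac2, a GTPase of blood cells, at 0.767. Over the 57 chemokine and receptor promoters, the intravasating clones E and T differed from each other by 0.0645 on average. This was the eighth smallest of the 15 pairs, the smallest being 0.0449 between the non-intravasating clones K and P.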

How the data were processed

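Genomic DNA was bisulfite converted and sequenced as paired reads of 76 nt, per the labels' protocols, giving 14 libraries in 2 rounds from 6 clones and the parental line. The deposited promoter values were methylation fractions from 0 to 1, with 1 value per clone. How the authors combined the rounds, the aligner, the promoter boundaries and the coverage are not stated in the sources at hand. The build mm10 and the tools bedtools and DESeq are named, with no role, per the submitters' processing notes. Nothing in the labels shows the rounds to be separate cultures, so p-values measure the spread between clones only. A second deposited table, of hypomethylated regions without gene names, was not used.

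Rows of 1 gene with equal levels were counted once. limma 3.58.1 (R 4.3.3), with eBayes, a mean trend and Benjamini-Hochberg adjustment, was fitted on all 21965 promoters. It compared 2 intravasating with 4 non-intravasating clones, with calls at an adjusted p under 0.05. Tested on simulated data, the fit missed most changes of 0.1 or 0.2 in level, so differences of that size can go uncalled. The count model held in reserve was not used, since the table gives no read counts. Other values are counts, medians and means ± SD, computed with Python 3.11.15 (NumPy 2.4.6, pandas 2.3.3, SciPy 1.17.1), and figures were drawn with matplotlib 3.10.9. Sequences, gene order and chromosomes come from the RefSeq table of GRCm38.p6, a C57BL/6J genome, whereas 4T1 is of BALB/c origin.

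The members and lists were chosen with earlier results of these data known. Genes named were those without overlap between groups, with a range of at least 0.2, with the 3 lowest or highest means among ligands or receptors, and a list of well-known members. Others were named to complete a block or role. Cxcl15, Cxcr7, Ccl19, the Ccl21 genes, Ccl27b and Ccl28 were not analysed here, and 1 member enters the counts and means only and is not reported here. The alternatives were a logit scale, no mean trend, centred clones, a range filter, other limits and each clone left out.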

Additional observations from a re-analysis of the deposited data

Results flagged for a closer look

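In the 4 non-intravasating clones, 1 clone lay far from the other 3 at 3 of the 57 promoters (5.26%), against 6.56% of all promoters. Chance gives about 1 in 20, which is close to this share. The Cxcl13 promoter was at 0.317 in clone L, and at 0.461 to 0.490 in clones I, K and P. The Ccl20 promoter was at 0.751 in clone P, and at 0.629 to 0.643 in clones I, K and L. The Cxcr5 promoter was at 0.556 in clone L, and at 0.680 to 0.690 in clones I, K and P.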

How the results depend on the processing

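limma called 0 of the members in the main fit, on the logit scale, without the mean trend, after centring each clone on its median, with only promoters of a range of 0.1 or more (42 members) and without any 1 clone. Unadjusted p-values under 0.05 numbered 1 to 6, with 6 without clone L, where the smallest limma adjusted p was 0.626. Members with both intravasating clones above the others numbered 3 to 10 when 1 clone was left out (10 without T, 8 without E, 7 without I), and members with both below numbered 5 to 18 (18 without E, 10 without L, 9 without T or P). Over all promoters these shares moved too. The higher share was 20.6% without T, 10.01% without E and 8.66% without I. The lower share was 27.1% without E, 19.5% without L, 13.4% without T and 8.81% without P. Centring left 2 members below, against 5.3% of all promoters. Members with a clone standing apart numbered 2 after centring, against 3.04% of all promoters. They numbered 0 with a limit of 0.3 in place of 0.2, against 0.724% of all. Members at a high level numbered 1 with a limit of 0.9, against 4.22% of all. The mean difference over ligands was -0.0188 to -0.00223 with 1 clone left out, and that over receptors -0.0349 to 0.0115, positive without T or I. The Ccr2 difference reversed to 0.00186 without T and was -0.190 without E. Clone L was the lowest at 14 receptor promoters after centring, against 14.4% of all promoters, an alternative chosen after seeing the data. These sets are not matched for level, since 38.6% of all promoters but no receptor promoter had a mean level under 0.2. A centred share for promoters of intermediate level was not computed. The centred values therefore do not show how particular the pattern is to receptors. Leaving out E or T leaves 1 clone in the group, which limma assumes to vary like the others. The causes were not tested. No paired analysis was possible because the rounds have no separate columns. A coverage minimum was not run, as no coverage is given, and what depth limits is therefore unknown.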
